A study of Mus musculus with 2 samples.

Results

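The transcripts of the PP-fold peptide genes Ppy, Pyy and Npy, of the tetraspanin gene Tspan8 and of the Y receptor gene Npy1r were followed across the cell classes of islets from 2-week-old mice. These 5 genes were chosen by symbol out of 31053 genes in the deposited tables, and each symbol was found once. Each genotype, WT and Npc1-/- (labelled KO), gave 1 library, made from the pooled islets of 3 female mice. The mice were C57BL/6J littermates, and the knockout was a whole-body one, so that the altered allele was not limited to islet cells. No other allele, agent or diet is named for these libraries. The assay was droplet single cell RNA sequencing from the 3′ end of transcripts, in which a value counts unique molecular identifiers (UMIs), that is captured molecules. Such counts do not grow with the length of a transcript.

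Pancreatic polypeptide (Ppy), peptide YY (Pyy) and neuropeptide Y (Npy) form a family of short amidated peptides with a common hairpin fold. They act on Y receptors that couple to inhibitory G proteins, among them the Y1 receptor (Npy1r), and the enzyme dipeptidyl peptidase 4 trims peptide YY and neuropeptide Y and thereby changes which receptors they bind. In the islet, pancreatic polypeptide is the hormone of PP cells, peptide YY is made by several endocrine types in early life, and Tspan8 encodes a membrane protein of the tetraspanin family.

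The deposited tables held 8569 WT and 7646 Npc1-/- barcodes with 114324626 and 127122035 UMIs. Barcodes were kept if they had over 1000 genes and below 50000 UMIs, with mitochondrial transcripts under 10% and haemoglobin at 0.1% or less, which left 4628 WT and 4269 Npc1-/- cells with medians of 18905 and 21381 UMIs, and 3 kept barcode sequences occurred in both libraries. Npc1 itself was counted at 8.40 per 1e6 UMIs (CPM) in WT and 4.14 CPM in Npc1-/- cells; since 3′ tags can lie outside the altered part of a gene, this checks the labels only in part. B cell and T cell droplets numbered 138 and 63 in WT and 1 and 0 in Npc1-/-, so the preparations also differed in cells from outside the islet. As a single library stands for each genotype, the comparisons of WT with Npc1-/- have no replicates and no p-values. All 95% intervals (exact Poisson limits of CPM, Clopper-Pearson limits of shares and conditional binomial limits of ratios) cover counting error only.

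A cell was assigned to the hormone that led its transcripts, as the largest of Ins1+Ins2, Gcg, Sst and Ppy+Pyy if this reached 10% of its UMIs. This gave 1833 insulin-led, 1048 glucagon-led, 189 somatostatin-led and 411 PP-led cells in WT and 1826, 857, 141 and 442 in Npc1-/-. Droplets with no leading hormone were called endothelial (434 and 436) or stellate (299 and 327) from marker genes and served as the background, because neither type is known to make islet hormones. Ppy and Pyy themselves define the PP-led class, so their level there is a description and not a finding. Of the 4 markers listed for PP cells, Aqp3, Sertm1 and Cartpt were near 0 in PP-led cells (at most 2.25 CPM), and Etv1 (229 CPM in WT and 220 CPM in Npc1-/-) was higher in glucagon-led cells (375 and 313 CPM). The class is therefore named by its leading genes alone.

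Ppy (ENSMUSG00000017316) lies on chromosome 11 of GRCm38 from 102099930 to 102101319 and Pyy (ENSMUSG00000017311) from 102106676 to 102107832, both on the minus strand with 5356 bases between them. Tspan8 (ENSMUSG00000034127) lies on chromosome 10 from 115816832 to 115849893, Npy (ENSMUSG00000029819) on chromosome 6 from 49822710 to 49829507 and Npy1r (ENSMUSG00000036437) on chromosome 8 from 66697192 to 66706792, all on the plus strand. The 100 bases before the RefSeq start of the 3 genes whose levels moved together across classes are shown on the strand of each gene, with the letters TATAA in capitals where they occur; they cover chr11:102101320-102101419 (minus strand) for Ppy, chr11:102107833-102107932 (minus strand) for Pyy and chr10:115817184-115817283 (plus strand) for Tspan8.
Ppy: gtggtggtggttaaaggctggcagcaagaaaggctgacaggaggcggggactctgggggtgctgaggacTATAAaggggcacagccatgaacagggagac
Pyy: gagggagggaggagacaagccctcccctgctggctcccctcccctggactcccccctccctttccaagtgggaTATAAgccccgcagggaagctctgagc
Tspan8: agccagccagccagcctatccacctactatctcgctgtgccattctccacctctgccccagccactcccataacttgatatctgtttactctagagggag
TATAA began 31 bases before the start of Ppy and 27 bases before that of Pyy (83 bases before a second RefSeq start of Pyy), and was not among the letters of the Tspan8 window. The windows of Ppy and Pyy adjoin the GENCODE spans of these genes. That of Tspan8 lies inside the GENCODE span, which begins at 115816832, so the bases before that position were not searched. On the strand of the gene, 7.48% of 32851 RefSeq windows of this length held it, and 10.2% held it on either strand. Searched on both strands, TAATTA occurred in none of these 3 windows (1.61% of all windows), GGGCGG in none of them (24.7%) and CANNTG only in that of Pyy (34.4%).

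Ppy and Pyy were counted in every endocrine class, in a falling order from PP-led through somatostatin-led and glucagon-led to insulin-led cells, and Pyy was the more abundant of the pair wherever another hormone led. In WT, Ppy stood at 178539 CPM in PP-led cells, 26980 CPM in somatostatin-led, 5726 CPM in glucagon-led and 2445 CPM in insulin-led cells. In Npc1-/- the levels of Ppy were 157663, 24807, 8160 and 4693 CPM. Pyy in WT was at 176850, 83923, 19875 and 7150 CPM, and in Npc1-/- at 160029, 92807, 25009 and 12189 CPM in the same order of classes. Neighbouring classes in these orders were separated by more than their counting intervals in both libraries. Over all kept cells, PP-led cells held 81.6% of the Ppy UMIs but only 58.6% of the Pyy UMIs in WT (75.7% and 52.4% in Npc1-/-). Insulin-led and glucagon-led cells held 15.9% and 14.9% of WT Pyy, and 23.1% and 15.0% of Npc1-/- Pyy.

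**Figure D1:**
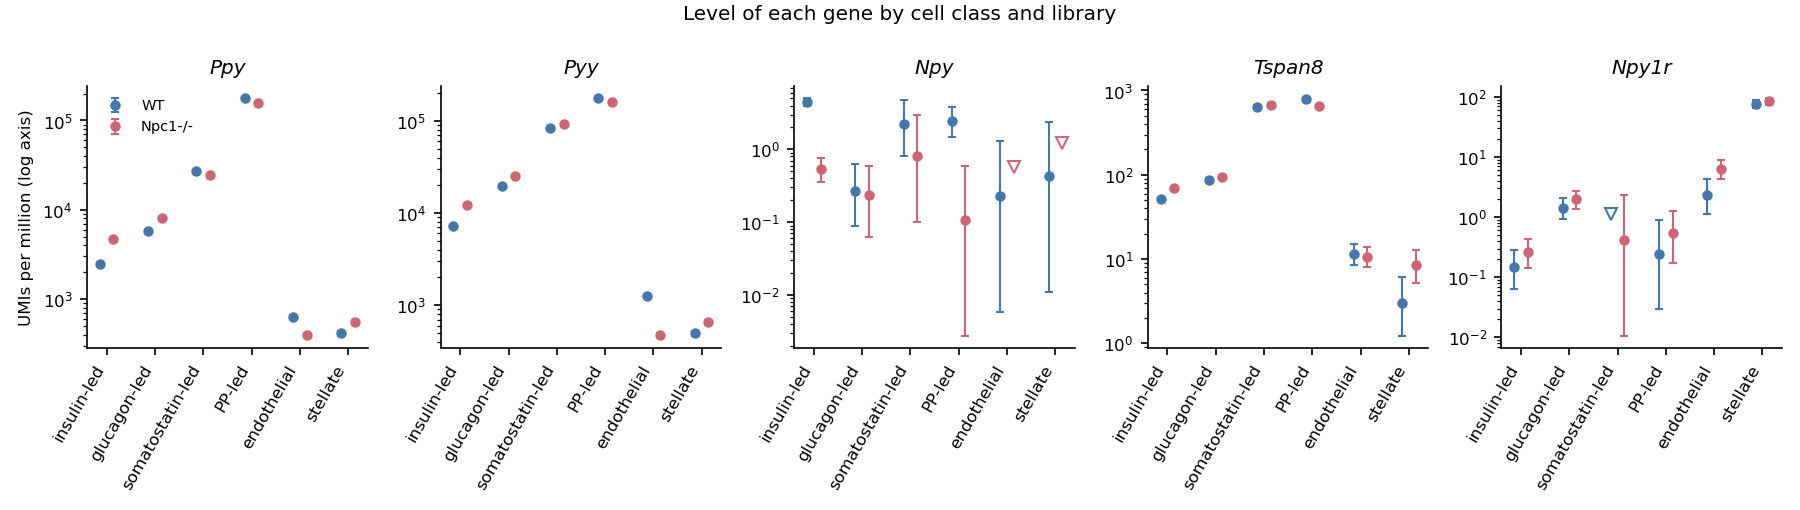
Level of each of the 5 genes (y axis, UMIs per 1e6 UMIs, log axis) in 6 cell classes (x axis) of the WT (blue) and the Npc1-/- (red) library. Points are summed counts with exact 95% Poisson intervals and open triangles mark the upper limit where no UMI was counted; Ppy, Pyy and Tspan8 were high in PP-led and somatostatin-led cells, and Npy1r stood at 77.1 and 83.6 in stellate cells.

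Most droplets of the background classes held a few molecules of these hormones. Stellate droplets had a median of 3 Ppy UMIs in both libraries and 3 (WT) and 4 (Npc1-/-) Pyy UMIs, and endothelial droplets had 3 and 4 of Ppy and 4 and 4 of Pyy. The mean number per stellate droplet was 4.39% (WT) and 2.98% (Npc1-/-) of the mean Ppy UMIs of an insulin-led cell, and 1.79% and 1.38% of its Pyy UMIs. The WT endothelial sums (635 CPM of Ppy and 1259 CPM of Pyy, against 399 and 478 CPM in Npc1-/-) exceeded what the medians imply, since single droplets reached 1080 Ppy and 1568 Pyy UMIs. Ppy counts above the 95th percentile of endothelial and stellate droplets (8 UMIs in WT, 9 in Npc1-/-) were seen in 40.7% (38.4 to 42.99) of WT and 54.1% (51.7 to 56.4) of Npc1-/- insulin-led cells. For Pyy, whose limits were 8.4 and 10 UMIs, the shares were 73.3% (71.2 to 75.3) and 78.9% (77.0 to 80.8). In glucagon-led cells Ppy was above this limit in 58.0% and 67.2%, and Pyy in 95.4% and 97.5%. All 189 and 141 somatostatin-led cells were above the Pyy limit.

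The genotypes were compared within each class as the log2 ratio of Npc1-/- over WT CPM relative to the median gene, over genes that reached 5 CPM in WT or Npc1-/- and with 0.5 counts added. In insulin-led cells the median gene itself stood 0.12 higher in Npc1-/- before this correction. Ppy was higher in Npc1-/- insulin-led cells by 0.82 (0.81 to 0.83), a fold of 1.77, and Pyy by 0.65 (0.64 to 0.66), a fold of 1.57. They ranked 32 and 73 from the top of 8858 genes. Tspan8 was higher by 0.28 (0.21 to 0.35). Of the 3 genes that reached 5 CPM, Ppy and Pyy lay past 1.5-fold, a limit that 2.65% of all genes passed in either direction. The count per cell moved with the sum, from a median of 7 to 10 UMIs for Ppy and from 67 to 160 UMIs for Pyy, while the median UMIs of all genes per insulin-led cell were 30417 and 30094. The share of Ppy+Pyy in the UMIs of an insulin-led cell had a median of 0.348% in WT and 0.783% in Npc1-/-, its 10th percentile was 0.030% and 0.044% and its 90th percentile 2.58% and 4.77%. A share of 1% or more was found in 491 cells of WT (26.8%, 24.8 to 28.9) and in 821 cells of Npc1-/- (45.0%, 42.7 to 47.3), so the ratio was 1.68 (1.499 to 1.88). Shares under 0.1% were found in 31.8% and 20.5%, a ratio of 0.647 (0.567 to 0.738), and 16 WT and 45 Npc1-/- insulin-led cells reached 10% or more. Npc1-/- cells thus had the higher share at both ends of the distribution as well as in its middle. The low end lay within the background, as the 10th percentile was 3 and 3 UMIs for Ppy and 4 and 6 UMIs for Pyy. Stellate droplets were themselves higher in Npc1-/-, by 0.41 (0.29 to 0.53) for Ppy and 0.42 (0.31 to 0.53) for Pyy. The endothelial sums were lower. The part of the background in the low end was not tested. Doublet scores by Scrublet rose with the Ppy+Pyy share, from a median of 0.054 under 0.1% to 0.150 at 10% or more in WT and from 0.049 to 0.090 in Npc1-/-. With the highest scores removed, the log2 ratio of Npc1-/- over WT was 1.13 for Ppy and 0.78 for Pyy. With pooled mice and 1 library each, animal, litter and preparation cannot be told apart from genotype.

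**Figure D2:**
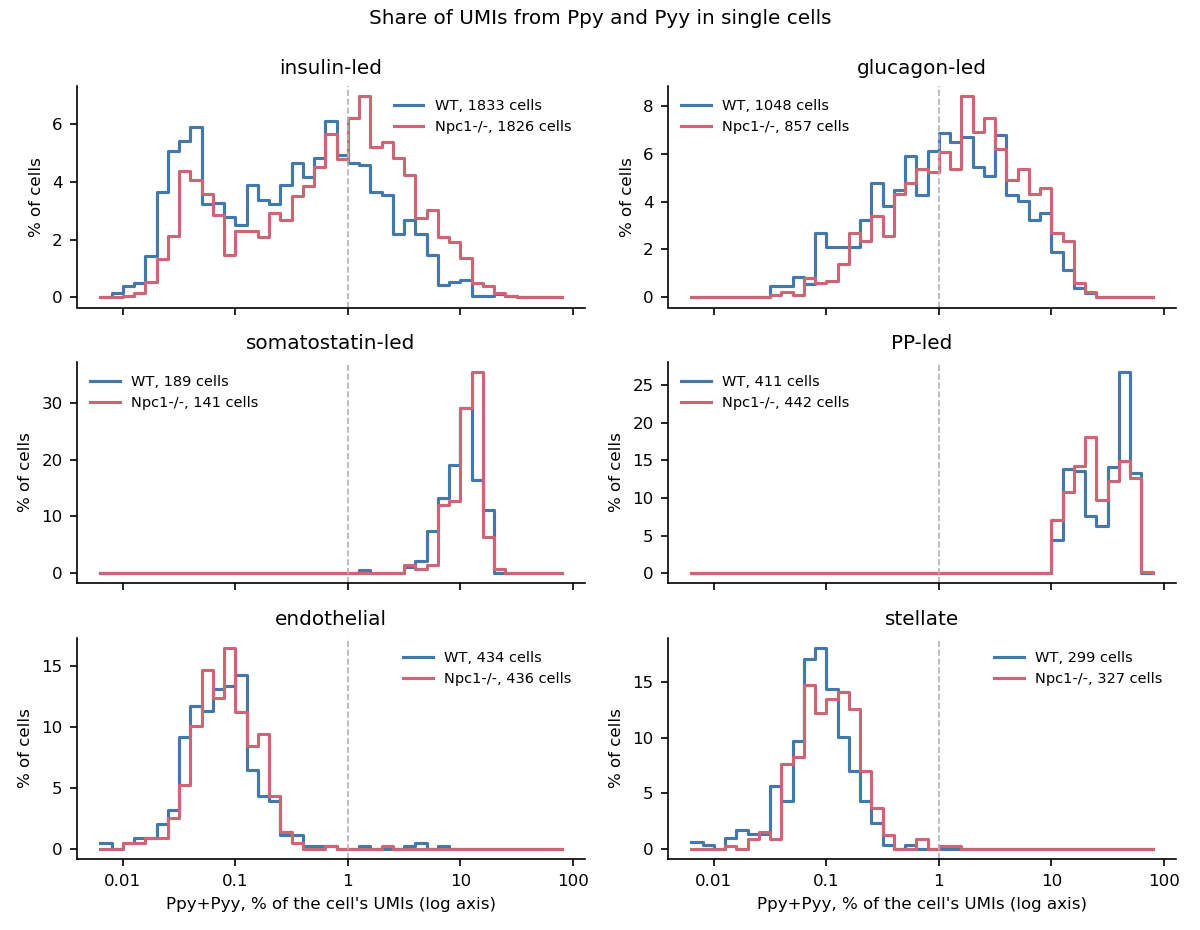
Distribution over cells (y axis, percent of the cells of the class) of the share of a cell's UMIs that came from Ppy and Pyy (x axis, percent, log axis), for 6 classes in WT (blue) and Npc1-/- (red). The dashed line marks 1%, which 26.8% of WT and 45.0% of Npc1-/- insulin-led cells reached; endothelial and stellate droplets centred near 0.1%.

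In glucagon-led cells Ppy was higher in Npc1-/- by 0.48 (0.47 to 0.49) and Pyy by 0.30 (0.30 to 0.31), and Tspan8 differed by 0.09 with an interval across 0 (-0.01 to 0.19). None of these 3 genes passed 1.5-fold there (1.78% of all genes did). The median Ppy+Pyy share of glucagon-led cells was 1.24% in WT and 1.80% in Npc1-/-, and 56.0% and 65.3% of them reached 1%, a ratio of 1.17 (1.04 to 1.31). In somatostatin-led cells the log2 ratio was -0.13 (-0.15 to -0.12) for Ppy, 0.13 (0.13 to 0.14) for Pyy and 0.05 (-0.05 to 0.15) for Tspan8, with 0 of 3 past 1.5-fold and 11.9% of all genes past it. In PP-led cells the ratio was -0.24 (-0.24 to -0.24) for Ppy, -0.21 (-0.21 to -0.20) for Pyy and -0.33 (-0.38 to -0.28) for Tspan8, again 0 of 3, with 4.38% of all genes past 1.5-fold. The direction for Ppy and Pyy was thus positive where insulin or glucagon led and negative in the class that they define, and whether the classes differ was not tested.

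PP-led cells fell into 2 kinds by Sst, with few cells between them. Sst reached 2% or more of the UMIs in 140 of 411 WT (34.1%) and 162 of 442 Npc1-/- (36.7%) PP-led cells, and only 9 and 5 cells lay between 0.1% and 2%. The cells with Sst carried the δ cell transcripts at nearly the level of somatostatin-led cells. Hhex, a transcription factor of δ cells, had 335 CPM (WT) and 297 CPM (Npc1-/-) in them, against 396 and 343 CPM in somatostatin-led cells and 7.71 and 9.64 CPM in PP-led cells without Sst. The ghrelin receptor gene Ghsr was at 20.7 and 21.5 CPM against 0.171 and 0.949 CPM without Sst, and Rbp4 and Arg1 showed the same split. Together, somatostatin-led and PP-led cells with at least 2% Sst numbered 329 and 303, all of which held Ppy or Pyy. Their Ppy+Pyy share ran from 1.46% over a median of 13.0% to 39.0% in WT and from 3.77% over 14.1% to 47.1% in Npc1-/-, so the line between somatostatin-led and PP-led cells cut through a single range. In 15.5% of them in WT and 24.1% in Npc1-/- Pyy alone exceeded Sst.

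The somatostatin-led and PP-led cells with at least 2% Sst were also pooled, which does away with the line between these classes; insulin-led and glucagon-led cells with Sst were not included. In these cells the log2 ratio of Npc1-/- over WT was 0.05 (0.05 to 0.06) for Ppy, 0.20 (0.19 to 0.20) for Pyy and 0.01 (-0.06 to 0.07) for Tspan8, where 6.28% of all genes passed 1.5-fold. In PP-led cells without Sst, Ppy was at 220954 (WT) and 200459 (Npc1-/-) CPM (-0.23, -0.23 to -0.23), Pyy at 204866 and 179766 CPM (-0.28, -0.28 to -0.27) and Tspan8 at 784 and 609 CPM (-0.45, -0.52 to -0.39). PP-led cells made up 8.88% of WT and 10.4% of Npc1-/- cells, a ratio of 1.17 (1.02 to 1.34). Split by Sst, the ratio was 1.254 (0.994 to 1.58) for PP-led cells with Sst and 1.12 (0.944 to 1.33) for those without, while somatostatin-led cells had a ratio of 0.809 (0.646 to 1.011) and these cells with at least 2% Sst together a ratio of 0.998 (0.851 to 1.17). The counting interval thus included 1 for the cells with at least 2% Sst once the line was removed. It also did so for PP-led cells without Sst, on which the line has no bearing. With 1 library per genotype, whether the numbers of cells differ by genotype was not tested.

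**Figure D3:**
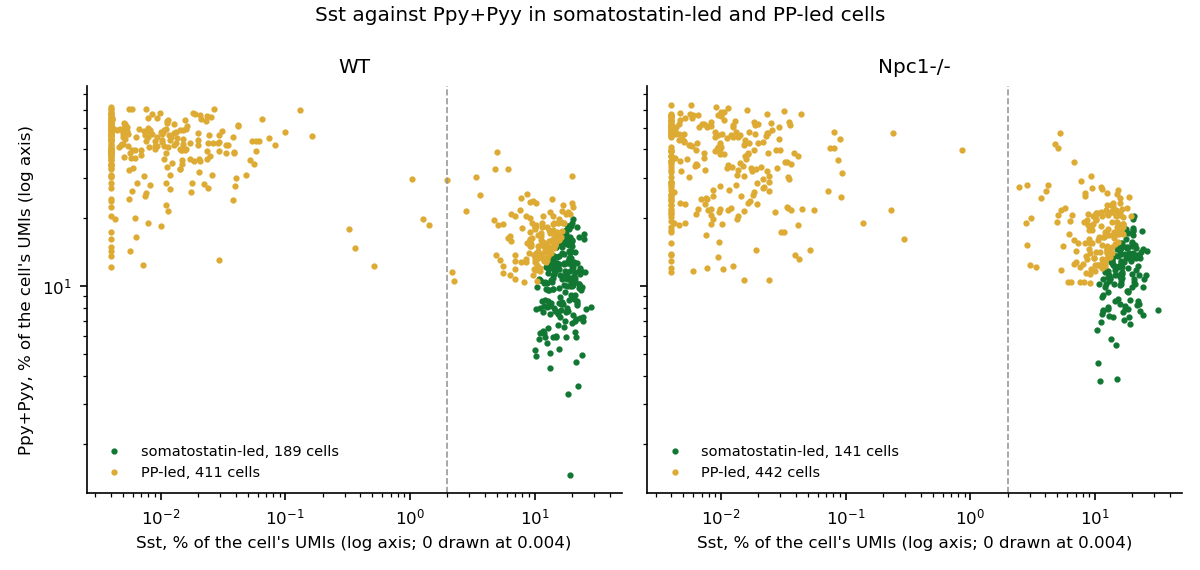
Share of Ppy+Pyy (y axis, percent of UMIs, log axis) against the share of Sst (x axis, percent of UMIs, log axis, cells at 0 drawn at the left edge) in somatostatin-led (green) and PP-led (yellow) cells of each library. The dashed line at 2% Sst separates 140 WT and 162 Npc1-/- PP-led cells, which join the somatostatin-led cells, from those nearly free of Sst.

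The balance of Ppy and Pyy differed between classes. Ppy made up 25.5% of the Ppy+Pyy UMIs of WT and 27.8% of those of Npc1-/- insulin-led cells, 22.4% and 24.6% in glucagon-led and 24.3% and 21.1% in somatostatin-led cells. It made up 51.9% and 52.7% in PP-led cells without Sst and 40.3% and 36.5% in those with Sst. Stellate droplets, the background, held 45.5% and 45.3%, above the values of insulin-led and glucagon-led cells. Insulin-led cells with under 0.1% Ppy+Pyy had 42.6% and 48.3% Ppy, near the stellate value, whereas those between 0.1% and 1% had 18.4% and 19.7%. The balance was uneven from cell to cell. Among insulin-led cells with at least 20 UMIs of the pair (1323 and 1529 cells), the median cell had 9.32% and 10.9% Ppy, and Ppy exceeded Pyy in 14.3% and 18.6%.

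By the limits set from endothelial and stellate droplets, insulin-led cells fell into 20.1% (WT) and 12.8% (Npc1-/-) with neither peptide, 6.66% and 8.27% with Ppy alone, 39.2% and 33.1% with Pyy alone and 34.04% and 45.8% with both. The groups with both peptides and with Ppy alone were larger in Npc1-/-, and the groups with Pyy alone and with neither were smaller. Ucn3, a gene of mature β cells, fell along the same order from 311 CPM (neither) to 144 CPM (both) in WT and from 284 to 94.2 CPM in Npc1-/-. Over single cells, Spearman's correlation of the Ppy and Pyy shares was 0.39 in WT and 0.41 in Npc1-/- insulin-led cells (1833 and 1826 cells), and 0.34 and 0.39 after each cell was thinned to 5000 UMIs. In glucagon-led cells it was 0.56 and 0.54 (thinned, 0.55 and 0.53). Endothelial and stellate droplets, which share the library with them, themselves gave 0.24 and 0.27 and 0.25 and 0.35 after thinning, so that correlations in insulin-led cells stood less than 0.1 above the largest background value. In PP-led cells with Sst the correlation was negative, at -0.40 and -0.25, and in those without Sst it was 0.02 and 0.32. The PP-led class asks for a high sum of the pair, so a cell low in one peptide has to be high in the other. Over somatostatin-led and PP-led cells with at least 2% Sst together, the correlation was -0.07 and -0.09. Shares of a fixed total compete where a gene takes a large part of it, and no p-value is attached to any of these values.

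**Figure D4:**
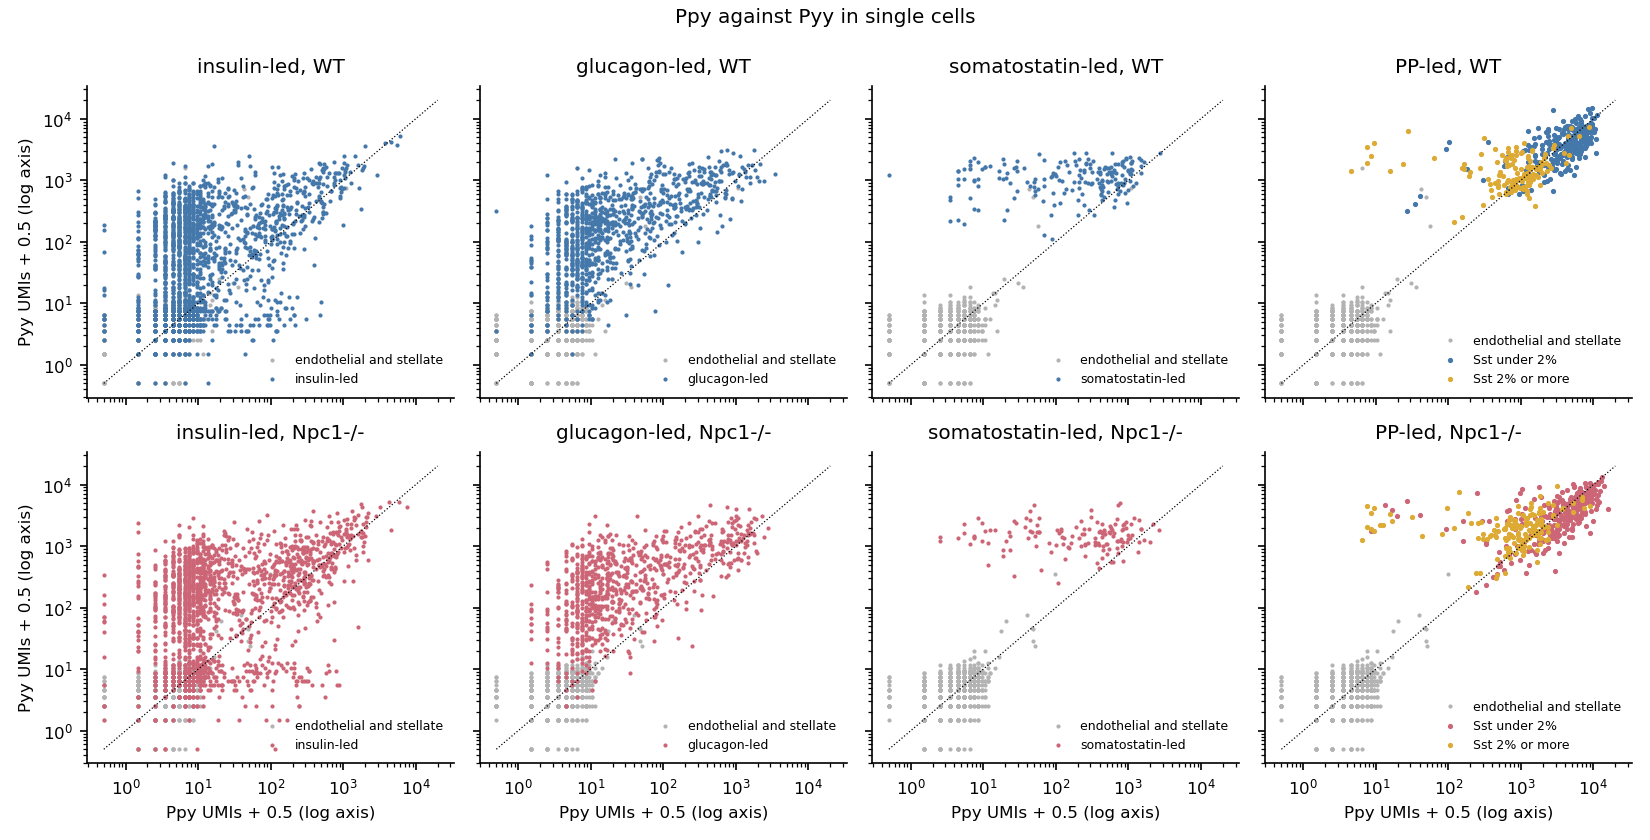
UMIs of Pyy (y axis) against UMIs of Ppy (x axis), 0.5 added, log axes, in single cells of 4 hormone-led classes in WT (upper row) and Npc1-/- (lower row), with endothelial and stellate droplets in grey and equality as a dotted line. Most insulin-led and glucagon-led cells lay above equality, as Ppy made up 25.5% and 27.8% of the pair in insulin-led cells, and PP-led cells lay around it.

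Tspan8 followed the PP-fold peptides across classes at a far lower level. It stood at 796 CPM (777 to 816) in PP-led, 644 CPM (614 to 675) in somatostatin-led, 87.2 CPM (83.0 to 91.5) in glucagon-led and 52.0 CPM (50.1 to 54.0) in insulin-led WT cells. In Npc1-/- it stood at 661 CPM (645 to 678), 672 CPM (640 to 706), 94.5 CPM (89.9 to 99.2) and 68.8 CPM (66.6 to 71.0), so that somatostatin-led and PP-led cells did not differ there beyond counting error. Endothelial droplets had 11.4 and 10.6 CPM and stellate droplets 3.02 and 8.48 CPM of Tspan8. A UMI of Tspan8 was found in 98.8% and 96.4% of PP-led, 97.9% and 100% of somatostatin-led, 43.04% and 52.5% of insulin-led and 43.8% and 50.8% of glucagon-led cells, at median depths of 14444 to 30417 UMIs. The share was 7.37% and 9.86% in endothelial droplets, at median depths of 7778 and 9934 UMIs. After thinning to 5000 UMIs the shares were 94.8% and 89.3% in PP-led, 92.8% and 94.2% in somatostatin-led, 16.8% and 21.7% in insulin-led, and 4.39% and 3.22% in endothelial droplets.

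Among 27 tetraspanin genes found in the tables, of 40 symbols searched, Tspan8 was the most abundant in somatostatin-led and in PP-led cells of both libraries, followed by Cd63. It was 7th of 27 in insulin-led cells of both libraries and 6th (WT) and 5th (Npc1-/-) in glucagon-led cells, where Cd63, a tetraspanin of lysosomes and secretory vesicles, led. The highest over the lowest of the 4 endocrine classes was 15.3-fold for Tspan8 in WT and 9.77-fold in Npc1-/-. By the smaller of both libraries' values this was the largest but for Tspan12 (26.1-fold) and Cd9 (18.9-fold) among 16 tetraspanins that reached 20 CPM. Between genotypes, 0 of 16 tetraspanins with at least 5 CPM in insulin-led cells passed 1.5-fold (median log2 ratio 0.13), 0 of 17 in glucagon-led cells (median -0.03), 1 of 19 in somatostatin-led cells (median -0.01; Tspan9, lower) and 0 of 18 in PP-led cells (median -0.09). Of all genes, 2.65%, 1.78%, 11.9% and 4.38% passed it in these classes, so the single tetraspanin in somatostatin-led cells was no more than the background there.

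Within insulin-led cells Tspan8 rose with the Ppy+Pyy share. In WT it stood at 10.4 CPM (8.94 to 11.9) in cells with under 0.1% Ppy+Pyy, 33.7 CPM (31.3 to 36.2) between 0.1% and 1%, 134 CPM (128 to 141) between 1% and 10% and 283 CPM (237 to 337) at 10% or more. In Npc1-/- the levels were 14.2 CPM (12.1 to 16.4), 35.1 CPM (32.5 to 37.8), 115 CPM (111 to 120) and 322 CPM (291 to 355). Each step was larger than the counting intervals in both libraries. In CPM the lowest band was near endothelial droplets (11.4 and 10.6 CPM) and above stellate droplets in WT (3.02 CPM). Its cells were deeper than endothelial droplets, with medians of 32840 and 33272 UMIs against 7778 and 9934. A Tspan8 UMI was found in 21.8% and 22.7% of them, against 7.37% and 9.86% of endothelial droplets. At equal Ppy+Pyy bands Npc1-/- was the higher under 0.1% and WT the higher between 1% and 10%, and the intervals of the other bands overlapped. In glucagon-led cells Tspan8 rose from 20.8 CPM (12.5 to 32.5) to 277 CPM (240 to 318) in WT. In Npc1-/- it was 68.3 CPM (41.1 to 107) in the lowest band, which held 16 cells and 19 Tspan8 UMIs, 43.6 CPM in the next and 213 CPM (187 to 241) in the highest. By joint state, insulin-led cells with Ppy alone had 13.4 CPM (10.0 to 17.5) in WT and 22.3 CPM (18.3 to 27.0) in Npc1-/-, below the 40.2 CPM (37.5 to 42.99) and 47.4 CPM (44.2 to 50.8) of cells with Pyy alone and the 97.0 CPM (92.6 to 101) and 107 CPM (103 to 111) of cells with both. Spearman's correlation with Tspan8 over insulin-led cells was likewise higher for Pyy (0.49 and 0.54, thinned 0.35 and 0.38) than for Ppy (0.31 and 0.36, thinned 0.25 and 0.29). In glucagon-led cells the order was the other way. There it was 0.39 and 0.31 for Pyy (thinned 0.30 and 0.24) and 0.41 and 0.35 for Ppy (thinned 0.36 and 0.28). The correlation with Tspan8 lay between -0.05 and 0.17 in thinned endothelial and stellate droplets.

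**Figure D5:**
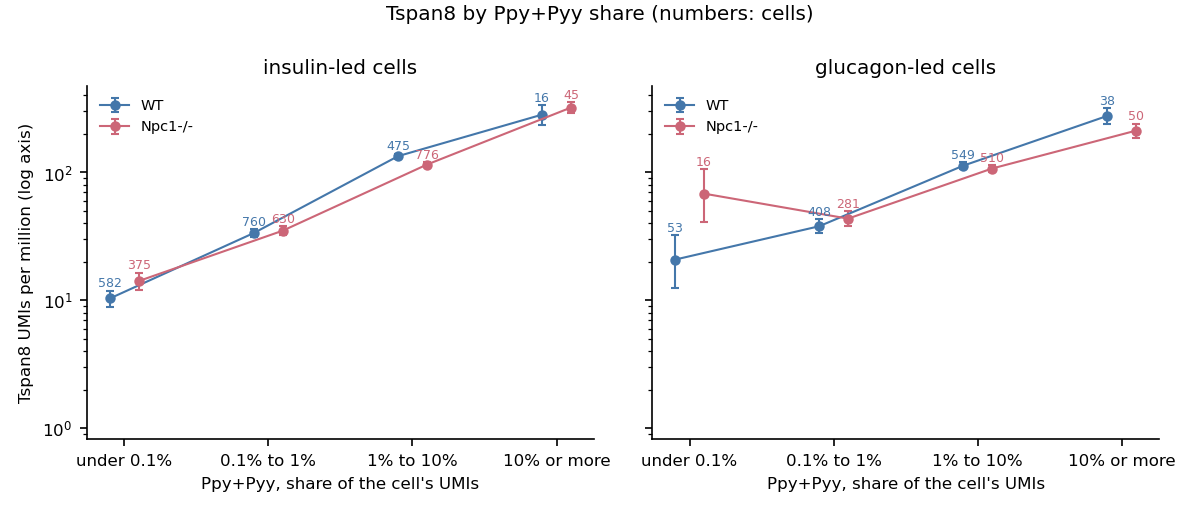
Tspan8 (y axis, UMIs per 1e6 UMIs, log axis) in insulin-led (left) and glucagon-led (right) cells grouped by the share of Ppy+Pyy in their UMIs (x axis), for WT (blue) and Npc1-/- (red), with exact 95% Poisson intervals and the number of cells above each point. In insulin-led cells the level rose from 10.4 to 283 in WT and from 14.2 to 322 in Npc1-/-.

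Setting the highest against the lowest quartile of insulin-led cells by Ppy+Pyy share, Tspan8 rose from 10.0 to 143 CPM in WT, a log2 ratio of 3.63 (3.397 to 3.88), and from 15.1 to 179 CPM in Npc1-/-, a log2 ratio of 3.28 (3.08 to 3.49). A rise of 1.5-fold or more was met by 5.46% of genes in WT and 5.56% in Npc1-/-, and by the smaller of both libraries' ratios Tspan8 was 4th of 4074 genes. In glucagon-led cells the same ratio was 2.87 (2.60 to 3.16) in WT and 2.15 (1.91 to 2.40) in Npc1-/-, where 3.89% and 4.17% of genes rose as far. The 10 genes with the highest ratios in insulin-led cells were Sst, Ly6h, Arg1, Tspan8, Rbp4, Cela1, Ramp1, Gpx3, Gcg and Calb1. Several of them are transcripts of other islet hormones or of δ cells, and Sst rose from 38.1 to 6833 CPM in WT and from 51.9 to 7110 CPM in Npc1-/-, while Gcg rose from 461 to 6286 CPM and from 584 to 4015 CPM. Without the insulin-led cells that held at least 0.1% Sst or at least 1% Gcg, the Tspan8 ratio was 3.49 in WT and 3.00 in Npc1-/-. The 5 genes with the lowest ratios were T2, Ucn3, Mafa, Ttc28 and Zc3h3, of which Mafa, a transcription factor of mature β cells, fell from 284 to 84.0 CPM in WT and from 301 to 76.5 CPM in Npc1-/-. Among the other tetraspanins Cd81 had a ratio of 2.41 and 1.86 and Cd9 of 1.059 and 0.977.

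Tspan8 was also high in some cells with few molecules of the peptides. Endocrine droplets in which none of Ins1+Ins2, Gcg, Sst and Ppy+Pyy reached 10% of UMIs numbered 62 in WT and 142 in Npc1-/-. Ghrelin was not part of this rule, and its share is not given here for these droplets. Those of them with under 0.1% Ppy+Pyy (11 and 56 cells) had 654 CPM (524 to 807) and 323 CPM (286 to 364) of Tspan8, against 10.4 and 14.2 CPM in insulin-led cells of the same band. With 1% to 10% Ppy+Pyy, such droplets had 492 CPM and 452 CPM. The median doublet scores of all these endocrine droplets were 0.089 in WT and 0.041 in Npc1-/-. Those under 0.1% Ppy+Pyy had medians of 0.141 and 0.030, and those with 1% to 10% had 0.061 and 0.079. The part of doublets in them was not tested.

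Npy was rare, and few cells carried it. Over all kept cells 319 Npy UMIs were counted in WT (3.39 CPM) and 82 in Npc1-/- (0.869 CPM). Insulin-led cells held 246 of them in WT (4.49 CPM, 3.95 to 5.09) and 29 in Npc1-/- (0.536 CPM, 0.359 to 0.769), a log2 ratio of -3.17 (-3.80 to -2.63), but only 28 of 1833 and 9 of 1826 insulin-led cells had any. In WT, 13 insulin-led cells with 6 to 42 UMIs each held 91.5% of the Npy UMIs of the class, and in Npc1-/- 2 cells had 7 and 11 UMIs. Most of the 13 WT cells were low in the relatives of Npy, though the highest Ppy+Pyy share among them was 8.73%. Over all insulin-led cells, Spearman's correlation of the Npy and Pyy shares was only -0.11 in WT and -0.06 in Npc1-/-. The Ppy+Pyy share of the 13 cells had a median of 0.027%, against 0.352% in all other WT insulin-led cells, and 12 of the 13 lay below the median of the class. Ucn3 was at 328 CPM in them and 203 CPM in the others, and Tspan8 at 39.1 (from 19 UMIs) and 52.1 CPM. In the 2 Npc1-/- cells Ucn3 was at 139.9 CPM, against 143.3 CPM in the others. Outside insulin-led cells, 9 of 33 Schwann cell droplets in WT and 4 of 40 in Npc1-/- had a Npy UMI. PP-led cells had 20 UMIs in WT, of which 16 lay in 2 cells, and 1 UMI in Npc1-/-, a log2 ratio of -4.03 (-9.96 to -1.94). Glucagon-led cells had 5 and 4 UMIs, and somatostatin-led cells 6 and 2. In WT the level of PP-led cells (2.45 CPM, 1.499 to 3.79) and that of somatostatin-led cells (2.21 CPM, 0.811 to 4.81) did not differ beyond counting error. Endothelial and stellate droplets had 1 and 1 Npy UMIs in WT and none in Npc1-/-, which allows up to 0.568 and 1.21 CPM. Since the difference in insulin-led cells rests on 13 and 2 cells, its counting interval understates its error.

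Npy1r, the receptor, was counted mainly in stellate droplets and hardly in endocrine cells. Stellate cells were 6.46% of WT and 7.66% of Npc1-/- cells and held 76.5% and 65.9% of the 234 and 314 Npy1r UMIs. Their level was 77.1 CPM (66.2 to 89.3) and 83.6 CPM (72.6 to 95.7), with a log2 ratio of 0.12 (-0.18 to 0.42), and 38.8% and 37.3% of stellate cells had a UMI. Among the 6 classes, endothelial droplets followed with 2.32 CPM (1.11 to 4.27) and 6.25 CPM (4.30 to 8.78), and glucagon-led cells with 1.41 CPM (0.92 to 2.06) and 1.98 CPM (1.37 to 2.77). Outside the classes, 2 of 73 WT and 10 of 19 Npc1-/- droplets assigned to no cell type held Npy1r, with 6 and 20 UMIs. The intervals of endothelial droplets and glucagon-led cells overlapped in WT but not in Npc1-/-. Insulin-led cells had 0.146 CPM and 0.259 CPM from 8 and 14 UMIs, PP-led cells 2 and 5 UMIs and somatostatin-led cells 0 and 1, and these levels did not differ among each other beyond their counting intervals. Glucagon-led cells held 11.1% and 10.8% of the Npy1r UMIs. Within this class Npy1r was lower in the highest than in the lowest quartile of cells by Ppy+Pyy share. The level was 0.40 against 3.21 CPM in WT (log2 ratio -2.67, -6.13 to -0.82). In Npc1-/- it was 0.41 against 3.24 CPM (-2.60, -6.06 to -0.72). The whole class held only 26 and 34 Npy1r UMIs.

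Endothelial droplets with Npy1r (7 in WT and 18 in Npc1-/-) also held the pericyte transcript Rgs5, with medians of 46 and 38.5 UMIs against 0 and 0 in those without, and were deeper, with medians of 18226 and 22005 UMIs against 7647 and 9098. The log2 ratio of Npc1-/- over WT for Npy1r in endothelial droplets was 1.37 (0.37 to 2.61) from 10 and 33 UMIs. The part that droplets with Rgs5 have in it was not tested. Of 4 genes with at least 5 CPM there, Npy1r was past 1.5-fold upward and Ppy (-0.68) and Pyy (-1.40) downward, against 6.59% of all genes; the median endothelial droplet held 3 and 4 UMIs of Ppy and 4 and 4 of Pyy. In stellate droplets 1 of 4 was past 1.5-fold, Tspan8 with 7 and 21 UMIs, against 12.6% of all genes. Within the stellate class, cells with Npy1r had on average more Acta2, a smooth muscle actin, than cells without it, at 15.4 against 9.57 UMIs in WT and 15.2 against 7.82 in Npc1-/-, with median depths of 6539 and 7364 UMIs in WT and 7102 and 7026 in Npc1-/-.

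The other Y receptors were next to absent at this depth. Over all kept cells Npy2r had 0 and 1 UMIs, Npy4r, the main receptor of pancreatic polypeptide, 0 and 2, Npy5r 0 and 0 and Npy6r 1 and 0, where a count of 0 allows up to 3 counts in a library. The enzymes that make or trim these peptides were all measured. Dpp4 was at 17.7 and 23.2 CPM in insulin-led and 36.4 and 44.7 CPM in PP-led cells. The prohormone convertase gene Pcsk2 was at 1140 and 1174 CPM in insulin-led and 1691 and 1653 CPM in PP-led cells, and Pam, whose product forms the amide end that these peptides need, at 103 and 133 CPM and at 290 and 306 CPM. Of the 5 genes of this list of 10 that reached 5 CPM (Dpp4, Pcsk1, Pcsk2, Cpe and Pam), none passed 1.5-fold between genotypes in insulin-led or PP-led cells (medians -0.07 and 0.01), where 2.65% and 4.38% of all genes did, and 1 of 5 did in glucagon-led and in somatostatin-led cells (medians -0.07 and -0.03), where 1.78% and 11.9% of all genes did. Pcsk1, the other convertase, was lower in Npc1-/- glucagon-led cells by a log2 ratio of -0.66 (11.03 and 7.11 CPM). In somatostatin-led cells it was lower by -0.95 (101 and 52.2 CPM). The background was also lower in Npc1-/-, with Pcsk1 at 12.3 and 5.11 CPM in endothelial and 16.8 and 4.04 CPM in stellate droplets. The glucagon-led level was below both background classes in WT and above both in Npc1-/-. The part of the background in the glucagon-led difference was not tested.

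Genes with the most similar pattern were taken by Pearson's correlation of log2(CPM+1) over 12 values, the 6 classes in both libraries, among 8902 genes with at least 20 CPM in any of them. For Ppy they were Pyy (0.973), Tspan8 (0.960), the folate receptor gene Folr1 (0.947), Rida and Slc9a3r1. For Pyy they were Folr1 (0.986), Tspan8 (0.982), Smim6, Rap1gap and Stmn3, and for Tspan8 they were Stmn3 (0.988), Fez1, Rida, Pyy (0.982) and Grb14. Ppy, Pyy and Tspan8 thus stood among each other's closest patterns, save that Ppy was not among the first 5 of Pyy or of Tspan8. The genes nearest to Npy were Hspa5 (0.812), the chaperone BiP of the endoplasmic reticulum, Creld2, Rpn2, Spcs2 and Nucb2. The Npy pattern rests on values from 0 to 4.49 CPM, the highest set mostly by 13 WT insulin-led cells. Schwann cell droplets, with 95.2 and 47.8 CPM of Npy, were not among the 6 classes. The genes nearest to Npy1r were Ehd1 (0.986), Ppp1r14a, Ggt5, Daam2 and Tpm2. These values share their libraries and depth and are a description. Because Ppy and Pyy define the PP-led class, their likeness to each other is in part set by the class rule. With Spearman's correlation in place of Pearson's, 1, 1, 1, 2 and 0 of the 5 genes stayed among the first 5 for Ppy, Pyy, Npy, Tspan8 and Npy1r.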

How the data were processed

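Single cell RNA sequencing of islet cells (10x Genomics, 3′ kit) was analysed from 1 WT and 1 Npc1-/- library. The deposited values are UMI counts of each gene in each barcode, not normalized by the authors and filtered only by Cell Ranger's choice of cells; per the submitters' processing notes Cell Ranger 3.1.0, Seurat 4.0.3 and mm10 were used. Depth was 114324626 and 127122035 UMIs, and genes under 1 CPM rest on few molecules.

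The filters on genes, UMIs, mitochondrial and red blood cell transcripts follow the study's methods, which also removed doublets by a caller not given in the sources used here. Cells were classed by leading hormone or by at least 3 markers with 2 or more UMIs each. For a level, the UMIs of all cells of a class were added within a library and divided by their total (CPM). Doublets were not removed in the reported values; Scrublet (scanpy 1.11.5) scores served as an alternative, removing 317 WT and 261 Npc1-/- cells. Versions were Python 3.11.15, scipy 1.17.1, numpy 2.4.6 and pandas 2.3.3, with edgeR 4.0.16 in R 4.3.3, for its TMM factor only. Positions come from GENCODE vM21 and promoters from RefSeq (GRCm38.p6), with 5 of 5 genes matched. Cells of 1 library are not replicates, so no test was run; the code for ratios, thinning and correlations was tested on simulated data. Named genes were the 5 genes, the Y receptor and peptide handling list, the tetraspanins, the 5 genes most alike in pattern to each, and the 10 highest and 5 lowest genes between quartiles of insulin-led cells by Ppy+Pyy share with at least 20 CPM in both libraries. The genes and lists were chosen with earlier results of these data known. Alternatives covered cell filters, doublets, the leading hormone, averaging, free RNA, scaling, low expression and depth.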

Additional observations from a re-analysis of the deposited data

Results flagged for a closer look

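The difference between the libraries in the PP-fold peptides took opposite directions in different classes. The log2 ratio of Npc1-/- over WT relative to the median gene was 0.82 for Ppy in insulin-led, 0.48 in glucagon-led, -0.13 in somatostatin-led and -0.24 in PP-led cells. The somatostatin-led value for Ppy was 0.49 where the leading hormone had to reach 20%, and 0.05 over somatostatin-led and PP-led cells with at least 2% Sst. For Pyy it was 0.65, 0.30, 0.13 and -0.21 in the same order of classes. Tspan8 stood at 0.28 in insulin-led and -0.33 in PP-led cells. With 1 library per genotype these differences between classes were not tested.

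Barcodes with 50000 or more UMIs, left out of the comparisons, held most of the Npy in both libraries. Npy stood at 84.2 CPM in the 168 such WT barcodes and at 21.4 CPM in the 370 such Npc1-/- barcodes, against 3.39 and 0.869 CPM in kept cells, which is 71.3% and 85.0% of all Npy UMIs. In WT, 813 of their 910 Npy UMIs lay in 3 barcodes, and in Npc1-/- 508 of 546 lay in 2 barcodes, none of which had a leading hormone (insulin 0.231% to 0.335% of UMIs). These 5 barcodes held 142 to 366 Npy UMIs each, with 265 to 524 UMIs of Stmn2, 127 to 297 of Prph and 160 to 447 of Vip, genes known from neurons that were picked after their values were seen. Insulin-led barcodes of this size had 9.79 and 1.59 CPM of Npy.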

How the results depend on the processing

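No paired analysis was possible because each genotype has 1 library. The log2 ratio of Ppy in insulin-led cells (0.82) kept its direction and was 0.66 with a looser and 0.74 with a stricter cell filter, 1.13 with the highest Scrublet scores removed, 0.80 with a leading hormone of at least 20%, 0.91 as a mean over cells, 0.90 with the endothelial mean subtracted, 0.94 not relative to the median gene, 0.80 with the TMM factor, 0.87 without hormones in the total, and 0.86 and 0.81 with the median over genes of at least 20 and at least 1 CPM. Pyy (0.65) was 0.59 with the looser filter, 0.78 with Scrublet, 0.62 at 20%, 0.69 as a mean over cells, 0.71 with the endothelial mean subtracted, 0.77 not relative to the median gene, 0.63 with TMM, 0.70 without hormones, and 0.69 and 0.64 with these medians. Tspan8 (0.28) was 0.38 with the stricter filter, 0.39 with Scrublet and 0.40 not relative to the median gene. Npy (-3.17) was -5.74 with the stricter filter, and Npy1r (0.67, interval across 0) was -0.78 with Scrublet; for both the cause was not tested. Among alternatives chosen after seeing the data, insulin-led cells with Sst under 0.1% and Gcg under 1% gave 0.95 for Ppy and 0.70 for Pyy, and the stellate median subtracted gave 0.85 for Ppy. The Tspan8 ratio between quartiles in Npc1-/- (3.28) was 2.86 with the stricter filter and 3.00 in cells with little Sst and Gcg. Of 102 alternatives for these and the remaining main results, 71 stayed within the counting interval of the reported value (correlations within 0.1), and 31 moved beyond it; among them Npy1r, whose interval crossed 0, was the ratio that changed sign, with Scrublet; subtracting the endothelial mean left no positive value for Npy1r in insulin-led cells. The ratio of PP-led shares ran from 1.05 to 1.254 and that of insulin-led cells with at least 1% Ppy+Pyy from 1.66 to 1.80.

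In the other endocrine classes 133 of 176 ratios stayed within the counting interval, 42 moved beyond it and Ppy in somatostatin-led cells reversed to 0.49 when the leading hormone had to reach 20%. Over the alternatives Ppy ran from 0.47 to 0.58 in glucagon-led and from -0.24 to -0.18 in PP-led cells, Pyy from 0.27 to 0.34, from 0.10 to 0.43 and from -0.25 to -0.14 in glucagon-led, somatostatin-led and PP-led cells, and Tspan8 from -0.34 to -0.24 in PP-led cells. Thinning to 5000 or to 2500 UMIs, each set against the unthinned cells, moved 84 of 120 shares of cells with a UMI. Mean over cells in place of sums moved 29 of 60 levels.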

Other observations

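Barcodes left out for other reasons held Ppy, Pyy and Tspan8 at lower levels. Among barcodes with 10% or more mitochondrial UMIs (2628 in WT and 2395 in Npc1-/-), Ppy stood at 6357 and 9421 CPM, Pyy at 7373 and 10673 CPM and Tspan8 at 48.3 and 67.3 CPM, against 18947 and 20635, 26141 and 30284, and 139.9 and 149.9 CPM in kept cells. Npy was higher there than in kept cells, at 5.85 against 3.39 CPM in WT and 2.30 against 0.869 CPM in Npc1-/-. Among barcodes with 50000 UMIs or more, Tspan8 stood at 65.8 and 90.4 CPM.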
